A study of Homo sapiens with 6 samples.

Results

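DNA replication needs a set of proteins that license origins of replication and a second set that copies the DNA at the fork. The transcripts of 48 such genes were measured by RNA-seq in MDA-MB-231 cells, an established human triple-negative breast cancer line with a mesenchymal-like expression profile. The 48 genes were chosen by name for their roles, with earlier results of these data known, and were found by symbol in the count tables. All 48 were present among the 23228 symbols listed, and all 48 passed the filter on low counts that left 12796 genes for testing. The question was how their transcripts differed between cells with and without knockdown of PELP1, a coregulator protein and proto-oncogene.

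There were 2 groups of 3 samples each. The control cells stably carried a lentiviral non-targeted shRNA, and the PELP1-KD cells stably carried a lentiviral shRNA against PELP1. Both groups were therefore transduced cells of the same line, grown in medium with 10% serum, and a single shRNA sequence stood for the knockdown. The labels number the replicates but do not say that they came from separate cultures or transductions, so that p-values measure the spread between these samples, which may be technical. Between 17304864 and 23132102 reads per sample were counted on genes, and each of the 48 genes had between 508 and 15938 counts in every sample. Levels are given as CPM, the count relative to a library size scaled by TMM factors, which centre the bulk of genes. A CPM is therefore relative to the other transcripts of its sample. A change is the log2 ratio of PELP1-KD to control (log2FC). An adjusted p is from the quasi-likelihood test of edgeR with Benjamini-Hochberg adjustment over all 12796 genes, and a gene was called lower or higher where it was below 0.05.

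An origin is licensed in G1 phase, when the origin recognition complex (ORC), CDC6 and CDT1 load the ring-shaped MCM2-7 helicase onto DNA, and geminin then blocks further loading. In S phase the DBF4-dependent kinase, CDC45 and the GINS complex switch the helicase on, polymerase alpha-primase lays down primers, and polymerases delta and epsilon extend them with the sliding clamp PCNA. Many of these genes are textbook targets of the E2F transcription factors, which are active in proliferating cells, and MCM proteins and PCNA are widely used to mark proliferating tumor cells.

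Promoter sequence was examined because the genes share this textbook regulator. Of the 48 genes, 42 had a promoter entry of 300 bases in the RefSeq table (GRCh38.p14, 250 bases before and 50 after the start). The letters TTTCCCGC, TTTGGCGC, TTTCGCGC or TTTGCCGC of an E2F site, on either strand, were present in 19 of the 42 (45.2%), against 3.33% of 27305 promoters of all genes and 5.33% of 8933 promoters of tested genes. Windows from 3 of them are given because they span the outcomes described further on, with POLA1 among the largest falls, MCM6 a smaller fall and the most matches, and PCNA not called. Each window has 160 bases, ends 5 bases before the RefSeq start and is written 5′ to 3′ on the strand of the gene. Capitals mark E2F letters, which in MCM6 form 2 pairs of overlapping matches. The windows lie at chrX:24693754-24693913 (+ strand) for POLA1, chr2:135876448-135876607 (- strand) for MCM6 and chr20:5126627-5126786 (- strand) for PCNA.
POLA1: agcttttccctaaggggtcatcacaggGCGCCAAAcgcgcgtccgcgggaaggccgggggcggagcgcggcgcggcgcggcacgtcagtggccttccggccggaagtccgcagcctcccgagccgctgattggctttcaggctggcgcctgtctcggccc
MCM6: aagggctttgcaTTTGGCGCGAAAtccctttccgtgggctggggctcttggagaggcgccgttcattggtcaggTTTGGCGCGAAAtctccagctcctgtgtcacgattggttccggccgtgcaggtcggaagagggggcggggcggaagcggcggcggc
PCNA: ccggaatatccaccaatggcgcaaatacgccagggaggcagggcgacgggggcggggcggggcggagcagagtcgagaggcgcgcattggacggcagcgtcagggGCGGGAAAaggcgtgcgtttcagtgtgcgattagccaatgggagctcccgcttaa

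The E2F letters did not go with a single direction of change. They were present in 6 of the 8 promoters of genes called lower, in 4 of the 8 of genes called higher and in 9 of the 26 of genes not called. MCM6, with 4 matches, was called lower, POLA2, with 1 match, was called higher, and MCM3 and MCM7, with 2 matches each, were not called. The letters CCAAT, bound by the factor NF-Y, were present in 54.8% of the 42 promoters, 35.7% of all promoters and 36.9% of those of tested genes. The cell cycle homology letters TTTGAA or TTCGAA were present in 7.14%, 16.6% and 10.9%, and the E-box CACGTG in 14.3%, 7.43% and 10.1%. A companion list of further replication genes, described further on, had 42 promoters in the same source. Of these 16.7% held the E2F letters, 52.4% CCAAT, 7.14% the cell cycle homology letters and 14.3% the E-box. A match is a description of the window and not evidence of binding.

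The targeted gene was checked first. PELP1 had 57.2, 56.0 and 60.2 CPM in the control samples and 28.6, 29.8 and 30.2 CPM in the PELP1-KD samples. Every PELP1-KD sample lay below every control sample, and PELP1 fell by 48.8% (log2FC -0.97, SE 0.055, adjusted p = 1.48e-11). A two-sided exact permutation test on 3 against 3 samples gave p = 0.1, the smallest that this design allows. The line was checked by its markers. VIM (2220 CPM), AXL (1437 CPM) and CD44 (1208 CPM), which mark mesenchymal-like breast cancer cells, were abundant in the control samples. ESR1 and PGR, the estrogen and progesterone receptor genes, had at most 2 counts in any sample, and ERBB2 stood at 113 CPM. The leukocyte gene PTPRC had 0 counts in all 6 samples, as did DCN of fibroblasts. The 5 mesenchymal-like markers summed to 5699 CPM in control and 4738 CPM in PELP1-KD cells. The 3 endothelial markers summed to 0.470 and 1.05 CPM. Of these VWF went from 0.108 to 0.744 CPM, PECAM1 from 0.221 to 0.199 CPM and CDH5 from 0.142 to 0.109 CPM. The 4 fibroblast markers, nearly all from COL1A1, summed to 5.89 and 18.3 CPM. CD68, a macrophage gene, had 118 CPM in control and 93.8 CPM in PELP1-KD cells. The part of these shifts in the values of the replication genes was not tested.

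Replication genes changed little and in both directions after PELP1-KD. Of the 48 genes, 9 were called lower and 9 higher, and 30 were not called. The 18 calls made up 37.5% of the genes, against 46.9% of all tested genes (24.2% lower, 22.7% higher). The changes ran from a log2FC of -0.41 in ORC3 to 0.25 in POLA2, with a median of 0.01 against 0.00 over all tested genes. No gene changed by more than 2-fold in this or any other fit, whereas 3.24% of all tested genes did so with an adjusted p below 0.05. In a bulk sample a smaller share of cells in S phase and less transcript per cell cannot be told apart. Some samples stood apart from their group. Over all genes the chi-square per degree of freedom was 3.87 and 4.11 between control replicate 1 and the other controls, which gave 1.47 between themselves, and 2.75 and 2.71 between PELP1-KD replicate 2 and the others, which gave 1.51. Without control replicate 1 the 48 genes gave 10 lower and 10 higher calls, and without PELP1-KD replicate 2 they gave 6 and 6. Without control replicate 2 the counts were 6 lower and 5 higher, without PELP1-KD replicate 1 they were 7 and 5, and without PELP1-KD replicate 3 they were 9 and 5. The share of the 48 genes called was 41.7% without control replicate 1, against 45.6% of all tested genes. It was 25% against 40.5% without PELP1-KD replicate 2, and 22.9% against 41.1% without control replicate 2. It was 25% against 41.2% without PELP1-KD replicate 1, and 29.2% against 40.4% without PELP1-KD replicate 3. Scaling by library totals alone moved the split from 9 lower and 9 higher (50% lower) to 6 lower and 18 higher (25% lower). All tested genes moved the same way, from 51.7% to 38.8% lower among those called. With offsets for gene length and GC content the counts were 18 lower and 14 higher, and the share called, 66.7%, was above that of all tested genes, 50.8%.

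**Figure D1:**
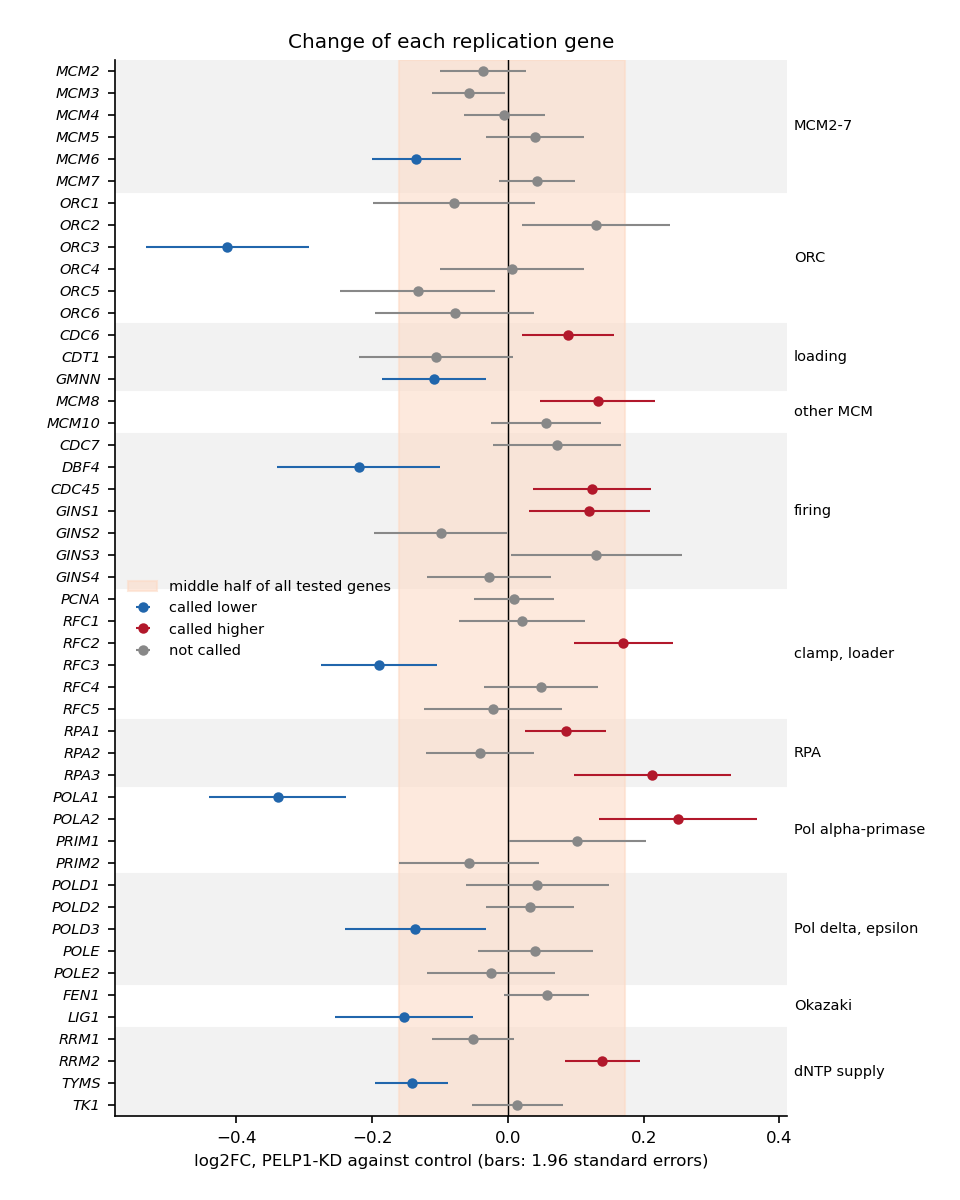
Change of each of the 48 genes, grouped by role, as log2FC of PELP1-KD against control (points) with their 95% intervals (bars). Blue and red mark genes called lower and higher, grey marks genes not called, and the orange band spans the 25th to the 75th percentile of all 12796 tested genes (-0.16 to 0.17). ORC3 and POLA1 stand furthest to the left, and POLA2 and RPA3 furthest to the right.

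The small size of the changes was visible beside all genes. The median size of the log2FC, whatever its sign, was 0.082 in the 48 genes, 0.167 in all tested genes and 0.129 in the 6874 genes tested at or above the level of the lowest of the 48, GINS3, with 29.1 CPM in control. Only 5 of the 48 (10.4%) had a log2FC beyond 0.2 in either direction, namely ORC3, POLA1, DBF4, POLA2 and RPA3, against 43.0% of all tested genes. The replication genes are abundant, with a median of 104 CPM in control against 33.8 CPM, and the more abundant genes changed less. Among those 6874 genes 31.6% went beyond 0.2, and 54.2% were called (33.6% lower, 20.6% higher). Precision was high in this set. The median coefficient of variation between replicates was 2.83% in control and 2.52% in PELP1-KD cells, against 5.21% and 4.46% in all tested genes and 3.55% in the control samples for the 6874 genes. For 32 genes the 95% interval of the change lay within 15% in either direction, and for 19 it lay within 10%. These intervals use the normal quantile and are narrower than the test itself would give. The transcripts of all 48 genes together summed to 7857, 7793 and 7747 CPM in the control samples and to 7832, 7785 and 7834 CPM in the PELP1-KD samples. The means, 7799 ± 55.1 and 7817 ± 27.8 CPM (SD, n = 3 each), differed by 0.225%, less than the spread between replicates. This holds for TMM factors. Scaled by library totals alone, which moved the median log2FC of all tested genes from 0.00 to 0.05, the sums were 7667 ± 20.6 and 7952 ± 26.6 CPM (SD, n = 3 each), higher by 3.72% in PELP1-KD cells with no overlap.

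**Figure D2:**
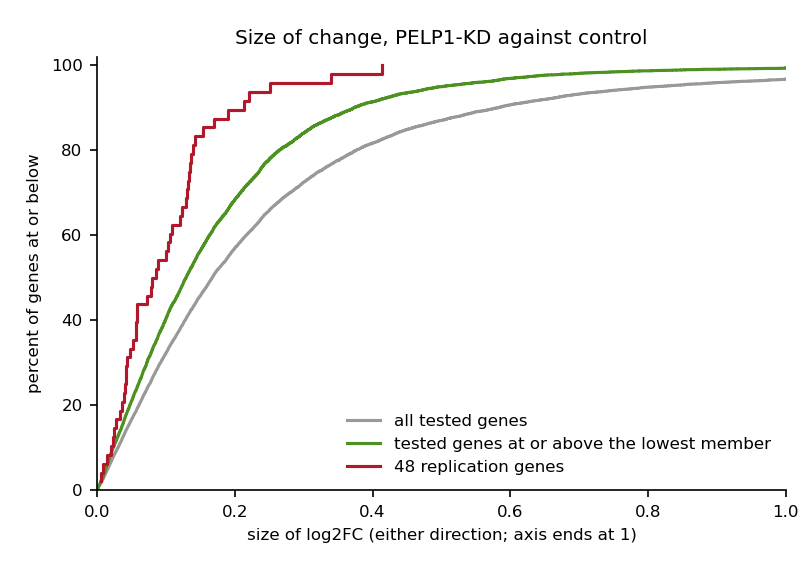
Cumulative share of genes (vertical axis, percent) with a log2FC of a given size or less in either direction (horizontal axis, cut at 1) for the 48 replication genes (red), the 6874 tested genes at or above the level of the lowest of them (green) and all 12796 tested genes (grey). The red line rises fastest and ends at 0.41, the size of the change of ORC3.

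Whether groups overlapped gave a similar picture. In 11 genes every PELP1-KD sample lay below every control sample, and in 12 every PELP1-KD sample lay above. These 23 genes compare with 55% of all tested genes (28% lower, 27% higher). Of the 18 genes called, 17 had groups that did not overlap, and POLD3 was the exception. Another 6 genes did not overlap but missed the threshold, MCM3, GINS2 and RPA2 on the lower side and ORC2, PRIM1 and FEN1 on the higher side. The 30 genes not called had a log2FC between -0.13 and 0.13, with 95% intervals that reached from -0.25 to 0.26 at the widest. The limits differ between genes, and any change within a gene's own interval is compatible with its data. For MCM3, ORC2, ORC5, GINS2, GINS3 and PRIM1 the interval did not include an unchanged level. The intervals, unlike the calls, are not adjusted for the number of genes tested.

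**Figure D3:**
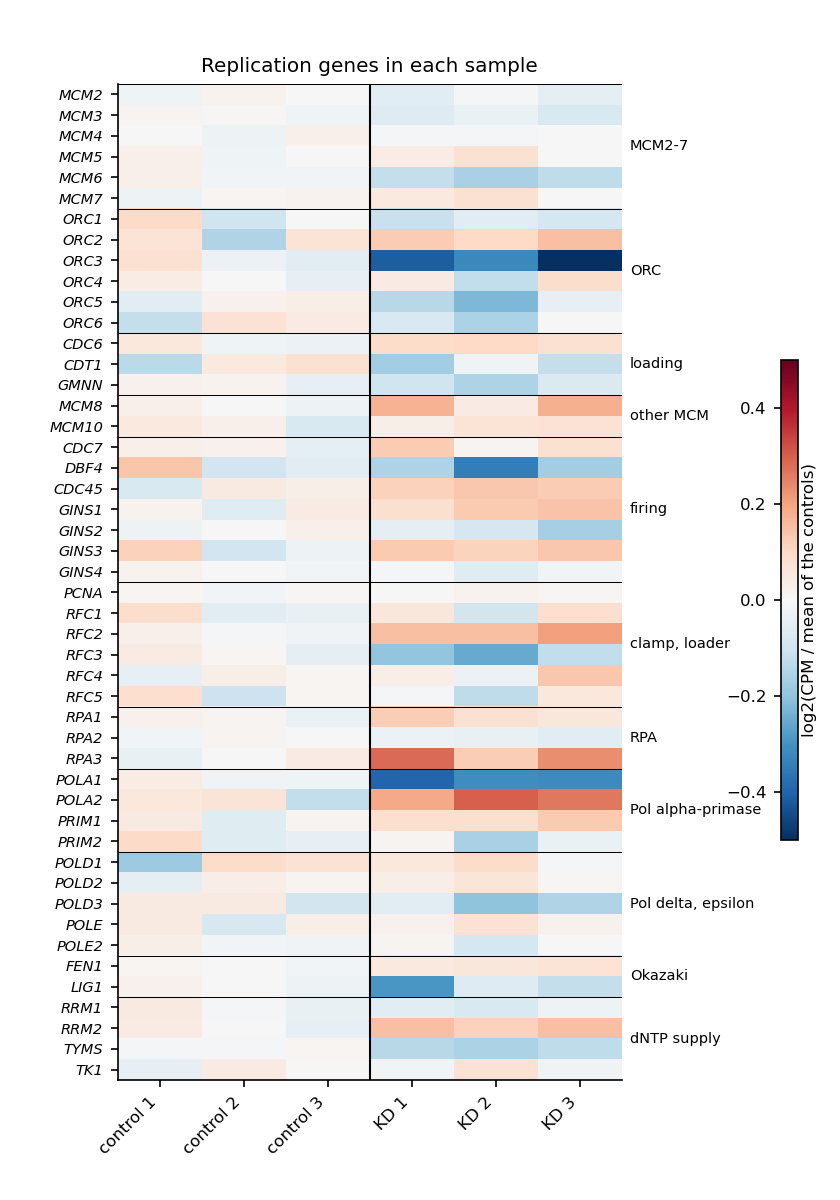
CPM of each of the 48 genes (rows, grouped by role) in each of the 6 samples (columns, KD standing for PELP1-KD), as log2 of its ratio to the mean of the 3 control samples (red above, blue below). ORC3 and POLA1 are blue in all 3 PELP1-KD samples, POLA2 and RFC2 are red in all 3, and most rows are pale.

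Levels of different genes were compared per kilobase of exon (RPKM, from exon lengths of GENCODE release 29). The highest level in control cells was that of TYMS, thymidylate synthase, with 210 ± 1.42 RPKM (SD, n = 3), followed by PCNA with 200 ± 1.79 RPKM and TK1, thymidine kinase, with 161 ± 4.71 RPKM. The lowest levels were those of GINS3 (5.71 ± 0.434 RPKM) and POLE, the catalytic subunit of polymerase epsilon (6.35 ± 0.293 RPKM). The subunits of one complex were not level with each other. The 6 subunits of the MCM2-7 hexamer, which joins them in equal numbers, ran from 19.9 ± 0.331 RPKM in MCM5 to 152 ± 1.94 RPKM in MCM3, a 7.66-fold range. The 6 ORC genes lay between 7.50 RPKM (ORC4) and 12.1 RPKM (ORC3), all below the 6 hexamer genes. With the length of the longest transcript in place of all exons, MCM5 stood at 41.3 and MCM3 at 173 RPKM, TYMS and PCNA remained the top pair, MCM7 (182 RPKM) passed MCM3, and ORC4 (9.96 RPKM) became the lowest.

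**Figure D4:**
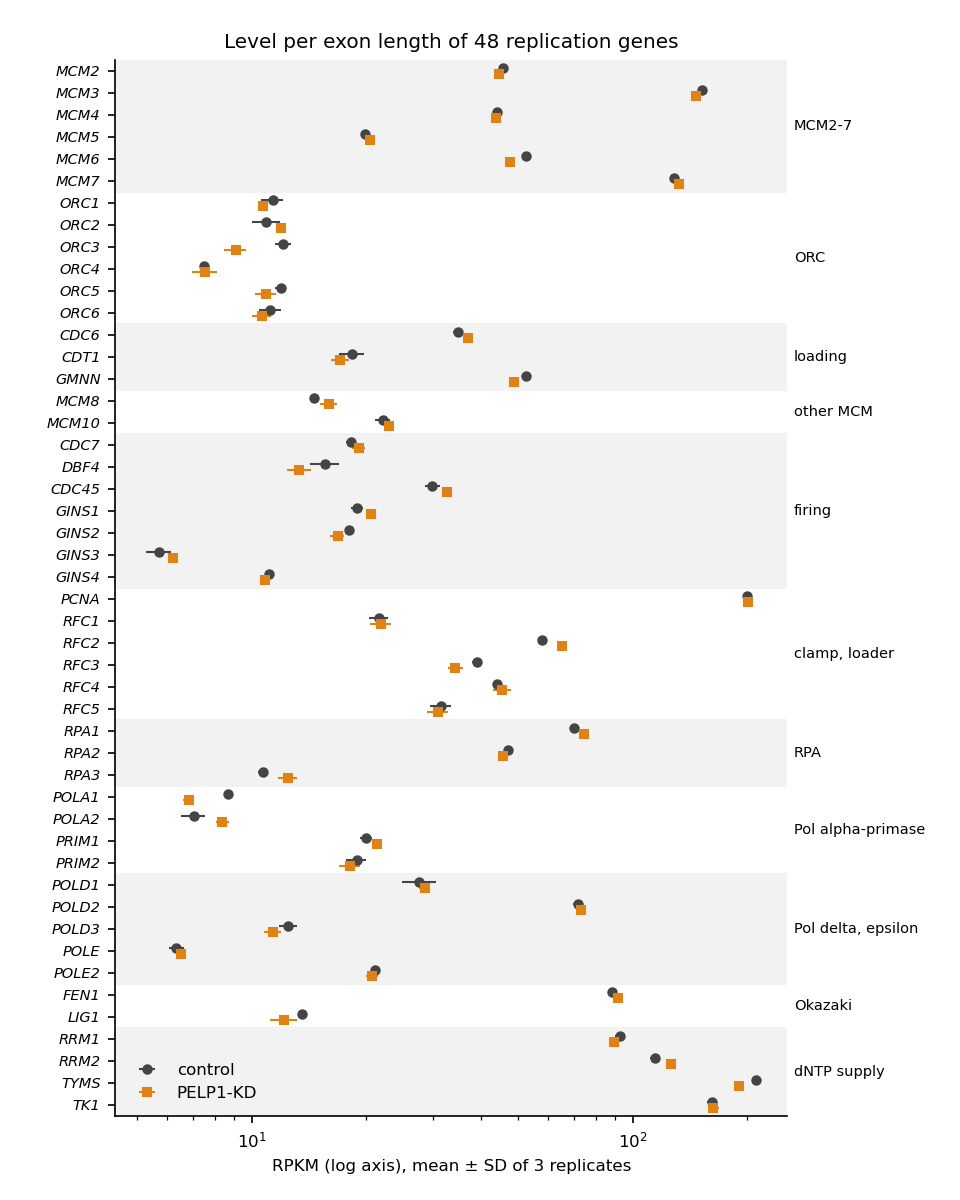
RPKM of each of the 48 genes, grouped by role, in control (dark circles) and PELP1-KD (orange squares) cells, mean with SD of 3 replicates, on a log axis. TYMS, PCNA, TK1 and MCM3 stand at the right with control levels above 150 RPKM, and the ORC genes, POLA1, POLA2 and POLE stand at the left.

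Of the MCM2-7 genes, which encode the motor of the replicative helicase, 1 was called lower and 5 were not called. MCM6 (chr2:135839626-135876426, GRCh38) had 220.1, 214 and 214 CPM in the control samples and 199, 193 and 198 CPM in the PELP1-KD samples. The groups did not overlap, and MCM6 fell by 8.92% (log2FC -0.13, SE 0.033, adjusted p = 0.00229). It was called in each of the 6 fits that left out a sample, with a log2FC of -0.09 with library totals. The other subunits had a log2FC between -0.06 (MCM3) and 0.04 (MCM7). MCM3 stayed below 0 in all 16 alternatives, and each of the others was on either side of 0 depending on the setting. With offsets for length and GC content MCM2, MCM3 and MCM7 were called lower, and with library totals MCM5 and MCM7 were called higher. MCM4, picked out after its values were seen as the flattest of the 6, had 307, 301 and 312 CPM against 306, 305 and 307 CPM, and its PELP1-KD samples lay within the range of the controls. Summed over the hexamer, the level was 2011 ± 1.08 CPM in control and 1984 ± 25.8 CPM in PELP1-KD cells (SD, n = 3 each). PELP1-KD replicate 2, at 2010 CPM, lay next to the controls, which ran from 2010 to 2012 CPM. The direction turned with library totals, where the sums were 1977 ± 10.4 and 2018 ± 26.1 CPM and every PELP1-KD sample lay above every control.

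In ORC, which binds origins and recruits the helicase, 1 gene was called lower and 5 were not called. ORC3 (chr6:87590067-87667453, GRCh38), a subunit of the ORC core, had 47.0, 43.7 and 43.0 CPM in the control samples and 33.5, 35.7 and 31.2 CPM in the PELP1-KD samples. The highest PELP1-KD sample lay well below the lowest control. The fall of 24.9% (log2FC -0.41, SE 0.061, adjusted p = 1.34e-05) was the largest among the 48 genes. ORC3 was also the single gene of the 48 that passed a test against a 1.2-fold change (adjusted p = 0.0249 in edgeR), which 13.2% of all tested genes passed. The test called 6.6% of all genes lower and 6.55% higher. In it 0 of the 48 were called higher. At an unadjusted p below 0.05 in this test there were 2 lower and 0 higher, and no share of all tested genes is given for that threshold. ORC2 (log2FC 0.13, adjusted p = 0.0615) and ORC5 (log2FC -0.13, adjusted p = 0.0676) missed the threshold on opposite sides. ORC5 was called lower in 3 of 16 alternatives. ORC1, ORC4 and ORC6 had a log2FC of -0.08, 0.01 and -0.08. With offsets for length and GC content ORC2 (log2FC 0.23) and ORC4 (log2FC 0.16, adjusted p = 0.00218) were called higher and ORC1 lower (log2FC -0.14, adjusted p = 0.0383), and ORC2 was called in 8 of 16 alternatives. Summed over the 6 genes the level was 304 ± 5.51 CPM in control and 290.2 ± 8.62 CPM in PELP1-KD cells (SD, n = 3 each), and the groups overlapped. The difference was -4.46%, and -1.13% with library totals.

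Of the factors that load the helicase and their inhibitor, 1 was called higher, 1 lower and 1 not called. CDC6, the ATPase that joins ORC at the origin, had 200.3, 190.4 and 189 CPM in control and 206, 207 and 204 CPM in PELP1-KD samples. The groups did not overlap, and CDC6 rose by 6.34% (log2FC 0.09, SE 0.035, adjusted p = 0.0411). It kept its call without control replicate 1 but lost it on leaving out each of the other 5 samples, with adjusted p between 0.0781 and 0.165. In DESeq2 its adjusted p was 0.058, and with library totals its log2FC was 0.14. GMNN, geminin, which binds CDT1 and blocks loading outside G1, had 132, 132 and 127 CPM in control and 121, 117 and 124 CPM in PELP1-KD samples. It fell by 7.27% (log2FC -0.11, SE 0.039, adjusted p = 0.028), with no overlap. The adjusted p of GMNN was 0.0976 without control replicate 2, 0.0663 without PELP1-KD replicate 1, 0.104 without PELP1-KD replicate 2, 0.0505 in DESeq2 and 0.214 with library totals, where the log2FC was -0.06. CDT1 itself was not called (log2FC -0.11, adjusted p = 0.142), but with offsets for length and GC content its log2FC was -0.28 and it was called lower (adjusted p = 1.46e-06).

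Outside the hexamer, MCM8, a helicase of recombination repair, was called higher. It had 114, 112 and 109.8 CPM in control and 126, 115 and 126 CPM in PELP1-KD samples, with PELP1-KD replicate 2 close to the controls. MCM8 rose by 9.60% (log2FC 0.13, SE 0.043, adjusted p = 0.016). Its call was lost without control replicate 2 (adjusted p = 0.0508), control replicate 3 (0.0601), PELP1-KD replicate 1 (0.0725) or PELP1-KD replicate 3 (0.0964), and with offsets for length and GC content its log2FC was 0.22. MCM10, which helps the activated helicase leave the origin, was not called (log2FC 0.06, adjusted p = 0.277).

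Genes of origin firing split, with 1 lower, 2 higher and 4 not called. DBF4 (chr7:87876216-87909541, GRCh38), the activating subunit of the kinase that phosphorylates the MCM helicase, had 78.5, 66.8 and 68.7 CPM in control and 64.1, 56.1 and 63.2 CPM in PELP1-KD samples. All PELP1-KD samples lay below all controls, and control replicate 1 was the highest and PELP1-KD replicate 2 the lowest. DBF4 fell by 14.2% (log2FC -0.22, SE 0.061, adjusted p = 0.0058). Without PELP1-KD replicate 2 the log2FC was -0.16 and the adjusted p 0.0513, and with offsets for length and GC content the log2FC was -0.13. CDC7, the catalytic subunit of the same kinase, was not called (log2FC 0.07, adjusted p = 0.231). CDC45, which binds MCM2-7 to form the active helicase, had 80.5, 87.5 and 86.5 CPM in control and 92.0, 93.1 and 92.5 CPM in PELP1-KD samples. CDC45 rose by 8.95% (log2FC 0.12, SE 0.044, adjusted p = 0.0263). Its adjusted p rose to between 0.0536 and 0.101 without control replicate 1 or any one of the PELP1-KD samples, and to 0.288 with the offsets, where its log2FC was 0.05. Of the 4 GINS subunits, which complete the active helicase, GINS1 rose by 8.68% (log2FC 0.12, SE 0.045, adjusted p = 0.035). That call was lost in DESeq2 (adjusted p = 0.057) and without control replicate 2 (0.2001), PELP1-KD replicate 2 (0.0731) or PELP1-KD replicate 3 (0.130), and the log2FC was 0.18 with the offsets. GINS2, GINS3 and GINS4 were not called, with a log2FC of -0.10, 0.13 and -0.03.

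PCNA and its loader, replication factor C, gave 1 call in each direction and 4 genes not called. PCNA had 296, 291 and 295 CPM in control and 294, 297 and 295 CPM in PELP1-KD samples. The groups overlapped, and the change of 0.609% (log2FC 0.01, SE 0.030, adjusted p = 0.83) was smaller than the spread between replicates. PCNA was picked out after its values were seen. RFC3 (chr13:33818049-33966558, GRCh38) had 115, 113 and 109 CPM in control and 97.9, 94.3 and 103 CPM in PELP1-KD samples. RFC2 (chr7:74231499-74254458, GRCh38) had 131, 128 and 127 CPM in control and 142, 142 and 148 CPM in PELP1-KD samples. The groups did not overlap in either gene, although both encode subunits of the same loader, which opens PCNA and closes it around primed DNA. RFC3 fell by 12.4% (log2FC -0.19, SE 0.044, adjusted p = 0.00126), and RFC2 rose by 12.5% (log2FC 0.17, SE 0.037, adjusted p = 0.000828). Both were called in each of the 6 fits that left out a sample. With offsets for length and GC content RFC3 had a log2FC of -0.12 (adjusted p = 0.00272), and RFC2 had a log2FC of 0.05 and was no longer called (adjusted p = 0.156). RFC1, RFC4 and RFC5 had a log2FC of 0.02, 0.05 and -0.02.

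Of the 3 subunits of replication protein A (RPA), which coats single-stranded DNA, 2 were called higher. RPA3 (chr7:7636518-7718607, GRCh38), the smallest subunit, had 33.7, 34.6 and 35.6 CPM in control and 42.1, 37.7 and 40.6 CPM in PELP1-KD samples. The groups did not overlap. RPA3 rose by 15.9% (log2FC 0.21, SE 0.059, adjusted p = 0.00552), and its call held in each of the 6 fits that left out a sample. RPA1, the large subunit, rose by 6.10% (log2FC 0.09, SE 0.030, adjusted p = 0.026), a call lost without control replicate 2 (adjusted p = 0.0609), control replicate 3 (0.132) or PELP1-KD replicate 1 (0.117). With library totals its log2FC was 0.13. RPA2 was not called (log2FC -0.04, adjusted p = 0.419). The 3 genes summed to 515 ± 7.18 CPM in control and 542 ± 11.95 CPM in PELP1-KD cells (SD, n = 3 each), with every PELP1-KD sample above every control. The difference was 5.14%, and 8.81% with library totals.

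Among the 48 genes, POLA2 and POLA1 were the pair of one complex called in opposite directions that lay furthest apart. Both belong to polymerase alpha-primase, which makes the primers of both strands. POLA1 (chrX:24693919-24996986, GRCh38), its catalytic subunit, had 56.3, 54.2 and 54.0 CPM in control and 41.6, 44.2 and 44.0 CPM in PELP1-KD samples. POLA2 (chr11:65261762-65305589, GRCh38), its accessory B subunit, had 41.8, 42.1 and 37.0 CPM in control and 46.0, 49.6 and 48.4 CPM in PELP1-KD samples. Neither gene had overlapping groups. POLA1 fell by 21.0% (log2FC -0.34, SE 0.051, adjusted p = 1.73e-05), and POLA2 rose by 19.0% (log2FC 0.25, SE 0.059, adjusted p = 0.00155). Both were called in each of the 15 other fits that tested for any change, with a log2FC between -0.35 and -0.27 for POLA1 and between 0.19 and 0.30 for POLA2. The primase genes PRIM1 (log2FC 0.10, adjusted p = 0.108) and PRIM2 (log2FC -0.06, adjusted p = 0.385) were not called.

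The ratio of 2 genes within a sample does not depend on the scaling of libraries, but shows only that one moved relative to the other. The ratio of the CPM of POLA2 to that of POLA1 was 0.743, 0.778 and 0.685 in control and 1.10, 1.12 and 1.10 in PELP1-KD samples. The ratio of RFC2 to RFC3 was 1.13, 1.13 and 1.16 in control and 1.46, 1.51 and 1.43 in PELP1-KD samples. For RRM2 over RRM1, the subunits of ribonucleotide reductase, it was 1.57, 1.58 and 1.57 in control and 1.82, 1.80 and 1.78 in PELP1-KD samples. In all 3 pairs the PELP1-KD samples lay above every control sample. The pairs were chosen for this pattern after their values were seen and are given without a test. The ratios are not adjusted for gene length or GC content. With offsets for these the log2FC was 0.19 in POLA2 and -0.27 in POLA1, against 0.25 and -0.34 without. In RFC2 and RFC3 it was 0.05 and -0.12, against 0.17 and -0.19. In RRM2 and RRM1 it was 0.17 and -0.01, against 0.14 and -0.05.

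Of the polymerase delta and epsilon genes, which encode the main copying enzymes of the lagging and leading strands, 1 was called lower and 4 were not called. POLD3, an accessory subunit of polymerase delta, had 70.8, 71.0 and 64.4 CPM in control and 66.1, 59.8 and 62.0 CPM in PELP1-KD samples. The groups overlapped, since PELP1-KD replicate 1 lay above control replicate 3. POLD3 fell by 9.02% (log2FC -0.14, SE 0.053, adjusted p = 0.0393). This was among the least firm of the calls. The adjusted p lay between 0.0577 and 0.158 without control replicate 1 or 2 or without PELP1-KD replicate 2 or 3, and it was 0.0701 in DESeq2, 0.177 with library totals and 0.118 with offsets for length and GC content, where the log2FC was -0.08. POLD1, POLD2, POLE and POLE2 had a log2FC between -0.03 and 0.04. With the offsets POLD1 (log2FC -0.11, adjusted p = 0.00691) and POLD2 (log2FC -0.10, adjusted p = 0.000713) turned sign and were called lower. With library totals POLD2 was called higher (log2FC 0.08, adjusted p = 0.0476). POLD1, the catalytic subunit of polymerase delta, was picked out after its values were seen and had a low value in control replicate 1, with 120.0 CPM against 145 and 143 CPM in the other controls.

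Of the genes that join Okazaki fragments on the lagging strand, LIG1, DNA ligase I, was called lower. It had 90.6, 89.3 and 87.7 CPM in control and 72.8, 85.4 and 82.1 CPM in PELP1-KD samples. The groups did not overlap, and PELP1-KD replicate 1 lay furthest from the controls. LIG1 fell by 10.1% (log2FC -0.15, SE 0.052, adjusted p = 0.0197). Without PELP1-KD replicate 1 its log2FC was -0.09 and its adjusted p 0.164, and its adjusted p was 0.0510 without control replicate 2 and 0.106 with library totals. FEN1, the flap nuclease that trims the fragments, was not called (log2FC 0.06, adjusted p = 0.151).

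The 4 genes of deoxynucleotide supply were among the most abundant of the 48. TYMS (chr18:657604-673578, GRCh38), which makes thymidylate, had 518, 517 and 523 CPM in control and 472, 465 and 475 CPM in PELP1-KD samples. RRM2 (chr2:10120698-10131419, GRCh38), the small subunit of ribonucleotide reductase, had 627, 610.0 and 592 CPM in control and 677, 660.3 and 677 CPM in PELP1-KD samples. Neither gene had overlapping groups. TYMS fell by 9.37% (log2FC -0.14, SE 0.027, adjusted p = 0.000241), and RRM2 rose by 10.1% (log2FC 0.14, SE 0.028, adjusted p = 0.000428). Both were called in each of the 15 other fits that tested for any change, with a log2FC of TYMS between -0.21 (the offsets) and -0.09 (library totals). RRM1, the large subunit, and TK1 were not called, with a log2FC of -0.05 and 0.01. With the offsets TK1 turned to -0.19 and was called lower (adjusted p = 2.19e-07). TYMS shares 1150 exon bases with ENOSF1 and C18orf56 on the opposite strand, and the strand setting of the counting is not given in the sources used here. ENOSF1 itself had 22.8 CPM in control and 26.2 CPM in PELP1-KD cells (log2FC 0.19, adjusted p = 0.064).

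The calls depended in part on whether gene length and GC content were modelled. With the offsets for gene length and GC content, 15 of the 18 calls kept their direction, CDC45, RFC2 and POLD3 lost theirs, and 0 turned. A further 17 genes were called, 10 lower and 7 higher. In all, 18 genes (37.5%) were then called lower and 14 (29.2%) higher, against 28.1% and 22.7% of all tested genes. The share called, 66.7%, was thus above the 50.8% of all tested genes, whereas in the main fit it was below, with 37.5% against 46.9%. Among the other fits without the offsets it was above with library totals (50% against 48.7%) and without the filter on low counts (39.6% against 37.6%). The 10 were MCM2, MCM3, MCM7, ORC1, CDT1, GINS2, RPA2, POLD1, POLD2 and TK1, and the 7 were ORC2, ORC4, MCM10, CDC7, GINS3, RFC1 and PRIM1. The largest shifts on the lower side were those of CDT1, from -0.11 to -0.28, and TK1, from 0.01 to -0.19. On the higher side ORC4 moved from 0.01 to 0.16 and ORC2 from 0.13 to 0.23. The number of genes beyond 0.2 was then 8 of 48 (16.7%), against 39.4% of all tested genes. ORC3, POLA1, MCM6, RFC3 and TYMS remained lower and POLA2, RPA3 and RRM2 higher in these and all other fits that tested for any change.

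**Figure D5:**
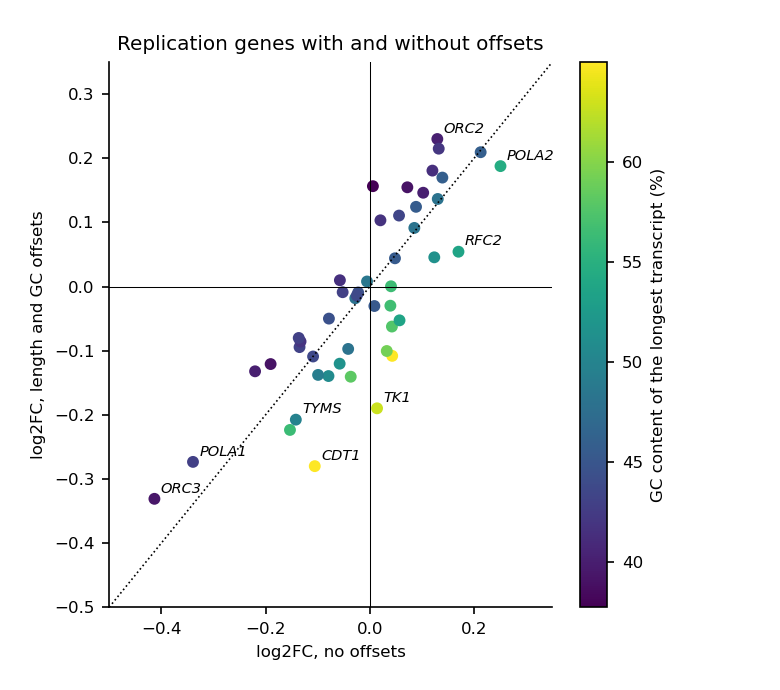
The log2FC of each of the 48 genes without (horizontal axis) and with (vertical axis) offsets for gene length and GC content, colored by the GC content of the longest transcript, with a dotted line where both are equal. Genes rich in GC, such as CDT1 and TK1, lie below the line, and genes poor in GC, such as ORC2, lie above it.

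A companion list of 51 further replication genes, grouped by role and likewise chosen with earlier results known, was counted in the same fit. Of these, 20 (39.2%) were called lower, 7 (13.7%) higher and 24 not, against 24.2% and 22.7% of all tested genes, with a median log2FC of -0.05 against 0.00 over all tested genes. The groups are small, and their counts are given as a description. Lower calls were made among genes of chromatin assembly behind the fork (7 of 11 lower, 2 higher) and of loading, unloading and turnover of PCNA (4 of 7 lower, 1 higher). Of 10 genes of licensing and firing, 4 were lower and 1 higher, of 6 fork protection genes 2 were lower, of 8 genes of the deoxynucleotide pool 2 were lower, of 6 genes of primer removal and topology 1 was lower and 2 were higher, and of 3 polymerase accessory subunits 1 was higher. Without PELP1-KD replicate 3 the higher calls numbered 4, and they numbered 11 with library totals or with the replicate number as a block. Library totals gave 17 lower, so that lower calls made up 74.1% of calls with TMM factors and 60.7% with library totals, against 51.7% and 38.8% of the calls over all tested genes.

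The largest companion changes were larger than most within the 48 genes. MMS22L, which protects stalled forks together with TONSL, had 51.0, 50.9 and 46.6 CPM in control and 36.7, 34.4 and 36.9 CPM in PELP1-KD samples, and fell by 27.3% (log2FC -0.46, SE 0.057, adjusted p = 1.33e-06). With the offsets its log2FC was -0.29. MCM9, the partner of MCM8 in a repair helicase, had 10.8, 12.2 and 10.6 CPM against 8.05, 8.01 and 8.41 CPM, and fell by 27.4% (log2FC -0.46, SE 0.097, adjusted p = 0.000537). MCM8 and MCM9 were thus called in opposite directions. MCM9 shares 137 exon bases with ASF1A on the opposite strand. CUL4A, a scaffold of the ubiquitin ligase that degrades CDT1, had 140.1, 140.5 and 134 CPM against 101, 103 and 106 CPM, and fell by 24.98% (log2FC -0.41, SE 0.040, adjusted p = 3.58e-08). CUL4A shares 437 exon bases with PCID2 on the opposite strand and has a named pseudogene. In none of these 3 genes did the groups overlap.

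POLD4, the smallest subunit of polymerase delta, rose most. It had 23.6, 24.4 and 23.1 CPM in control and 35.5, 38.2 and 38.2 CPM in PELP1-KD samples, a rise of 57.5% (log2FC 0.65, SE 0.061, adjusted p = 2.84e-08). Of the other subunits of the same enzyme, POLD3 was called lower (log2FC -0.14) and POLD1 and POLD2 were not called. LRWD1, an ORC-associated protein, rose from 52.6 ± 2.90 to 65.4 ± 3.76 CPM (SD, n = 3 each; log2FC 0.31, adjusted p = 8.59e-05), and its log2FC was 0.18 with the offsets. ASF1B, a histone chaperone, rose from 99.3 ± 3.53 to 117 ± 5.96 CPM (SD, n = 3 each; log2FC 0.24, adjusted p = 0.00021), with a log2FC of 0.08 and an adjusted p of 0.0431 with the offsets. Its paralog ASF1A was called lower (log2FC -0.32, adjusted p = 0.000403). The groups did not overlap in POLD4, LRWD1, ASF1B or ASF1A. LRWD1 shares 114 exon bases with POLR2J and MIR4467, and ASF1A shares 137 with MCM9.

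Related lists of the cell cycle were counted for context, and differences between lists were not tested. Of 34 mitotic genes 20 (58.8%) were called lower and 1 (2.94%) higher, against 24.2% and 22.7% of all tested genes. Among the 6874 tested genes at or above the level of GINS3, 33.6% were lower and 20.6% higher. The mitotic genes had a median log2FC of -0.11, and without PELP1-KD replicate 2 their lower calls numbered 13. Of 30 genes of homologous recombination and the Fanconi anemia pathway, 7 (23.3%) were called lower and 0 higher by edgeR, with a median of -0.01. At an unadjusted p below 0.05 these were 8 and 1, and no share of all tested genes is given for that threshold. DESeq2 gave 6 and 0, where 21.1% of all tested genes were lower and 18.7% higher. With the offsets 10 were lower and 10 higher, where 28.1% and 22.7% of all tested genes were.

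Reads that align to more than a single place were not counted on genes, and 32.5 to 32.9% of reads per sample were set aside in this way. Of the 48 genes, 9 have named processed copies or pseudogenes in the annotation, among them PCNA, RPA2 and RRM2 with 3 each and TYMS with 2, and 11 share exon bases with another listed gene. Their levels may therefore be less certain than those of the rest, which was not tested.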

How the data were processed

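The mRNA of both groups of MDA-MB-231 cells was sequenced, and the authors deposited, per sample, raw counts of single 50-base reads per gene symbol, without normalization. The submitters' processing notes name bcl2fastq, TopHat2, SAMtools, HTSeq and the build hg19; versions, annotation and strand setting are not given in the sources used here. Reads outside genes stayed out of library sizes. Genes passing filterByExpr (minimum 10 counts) in edgeR 4.0.16 (R 4.3.3) were scaled by TMM and tested by its quasi-likelihood test on the groups, with Benjamini-Hochberg adjustment. Each SE was derived from the log2FC and the F statistic, as their ratio after taking the root of F. Exon lengths, GC content and gene coordinates come from GENCODE release 29 (GRCh38), and promoters from RefSeq (GRCh38.p14). On simulated counts, 179 of 200 genes changed by a log2FC of 0.5 were recovered, with 15 false calls among 12714 genes. The simulation gave all genes a common dispersion. Its changes were larger than any among the 48 genes, whose largest size was 0.41. It therefore does not show how many changes of the sizes seen here would be recovered. With a simulated GC bias the same fit made 5527 false calls among 12716 genes, and 9 with the length and GC offsets. Alternatives used DESeq2 1.42.0, limma 3.58.1, mgcv 1.9.3 for the offsets, other scalings and filters, a replicate block and each sample left out. Deviations from the group mean gave an r of 0.039, 0.065 and -0.078 between same-numbered samples. Between samples of different numbers r ran from -0.121 to 0.0903. Whether the numbers pair the samples was not tested beyond these values. Replicates differed by more than sampling noise, most of all control replicate 1 and PELP1-KD replicate 2 from the rest of their groups.

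The 48 genes and all lists were chosen with earlier results of these data known. Beside PELP1, the genes named by rule were those of lowest adjusted p in each direction in each role group. The rule also named the 5 largest falls and rises and the 3 largest companion falls and rises. Values per sample are given for all of these but LRWD1 and ASF1B, which are given as mean with SD. Other genes were named after their values were seen. The mitotic and recombination lists were put through the alternatives, and summed CPM were rescaled by library totals, after the data were seen. The 95% intervals use the normal quantile of the SE, which includes the spread between replicates. That quantile leaves out the limited degrees of freedom of the test, so that the intervals are approximate and somewhat too narrow.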

Additional observations from a re-analysis of the deposited data

How the results depend on the processing

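PELP1 and the genes named by the rule, all of them called, had 0 changes of sign. Among genes not called, signs did change, as in PCNA and TK1. MCM6, ORC3, RFC3, RPA3, POLA1, POLA2, RRM2 and TYMS stayed called in all 15 alternatives that tested for any change. The 48 replication genes gave 9 lower and 9 higher calls, 9 and 9 with RLE size factors, 7 and 7 in DESeq2, 18 higher with library totals, 18 lower and 14 higher with length and GC offsets, 1 and 0 in the test against a 1.2-fold change, and 0 and 0 beyond 2-fold. Leaving out each sample gave 6 to 10 lower and 5 to 10 higher calls. These fits called 22.9 to 41.7% of the 48 genes, against 40.4 to 45.6% of all tested genes. All genes gave 3103 lower and 2904 higher, 845 and 838 in the 1.2-fold test, and 171 and 243 beyond 2-fold. The companion list gave 20 lower and 7 higher, 2 and 1 in the 1.2-fold test, 0 and 0 beyond 2-fold, 11 higher with library totals, and 4 to 7 higher on leaving out each sample. Mitotic genes gave 20 lower and 1 higher, 4 and 0 in the 1.2-fold test, 0 and 0 beyond 2-fold, 2 higher with the offsets, and 13 to 20 lower on leaving out each sample. Recombination genes gave 7 lower and 0 higher, 2 lower in the 1.2-fold test, 0 beyond 2-fold, and 6 higher with library totals, 10 with the offsets and 0 to 2 on leaving out each sample. The cause of these shifts was not tested. Whether the replicate numbers pair the samples was not tested beyond the correlations given above. Adding a replicate block, the 48 genes gave 10 lower and 10 higher, companion genes 11 higher and recombination genes 1 higher. With the block and the offsets, the 48 genes gave 18 lower and 14 higher, mitotic genes 2 higher and recombination genes 10 higher. With the longest transcript as the length, 46 of the 48 RPKM values moved by more than the spread between replicates. At these depths the 95% intervals of the 30 genes not called reached from -0.25 to 0.26.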
